A study of Mus musculus with 12 samples.

Results

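The zinc finger genes of proximal chromosome 17 were described in RNA of the hippocampus from WT and USF-1 KO mice. The members are the genes whose symbol starts with Zfp, that start below 36 Mb on chromosome 17 (mouse build GRCm38) and that had a nonzero count in at least 6 of the 12 mice. All 41 Zfp genes of this stretch passed the limit, out of 55487 genes in the table, and all 41 had counts in 12 of 12 mice. The group was selected on the genotype difference of Zfp946, which was much lower in USF-1 KO mice, so its own values, intervals and counts that include it are a description and support nothing, and the question is whether its fall was shared by the genes around it. The last member inside the limit on position is Zfp414, which starts at 33629090, and the first Zfp gene beyond it is Zfp57, a gene known for guarding imprinted loci, which starts at 37001163. The limit on counts left no gene out, and the lowest mean of a member was 12.3 normalised counts.

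Each library came from the hippocampus of a single mouse of the C57Bl/6JRccHsd strain aged 3 to 4 months. The 6 WT mice comprised 4 females and 2 males, and the 6 USF-1 KO mice comprised 2 females and 4 males. The published text gives another split of the sexes, so every value by sex, or with sex in the fit, rests on the sample labels. Heterozygous parents gave both genotypes, the mice were littermates, and every cell of a USF-1 KO mouse carries the loss of Usf1, so that an effect in neurons or glia cannot be told apart from 1 that reached the hippocampus from other organs. The deposited values are normalised counts, that is, reads counted on a gene divided by 1 size factor per library.

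Most genes named Zfp in clusters of this kind encode proteins with a row of C2H2 zinc fingers, each of which contacts a few bases of DNA, and many carry a KRAB domain. The KRAB domain recruits the corepressor TRIM28, which in turn brings the histone methyltransferase SETDB1 and heterochromatin proteins to the bound DNA. Such genes arose by repeated local duplication, many silence transposable elements, and clustered members share much of their sequence. USF-1 is a transcription factor of the helix-loop-helix family that binds the E-box CACGTG in promoters.

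An E-box was present in the promoter window of 9 of the 36 members that had a window in the RefSeq promoter table (GRCm38.p6, 250 bases before to 50 bases after a gene start), that is, in 25% of them. Over all genes with a window, 2187 of 27025 held CACGTG (8.09%). The 9 genes were Zfp820, Zfp942, Zfp943, Zfp947, Zfp994, Zfp944, Zfp758, Zfp946 and Zfp871, and 8 of them lie in the run of genes that ends with Zfp946. CACGTG reads the same on both strands, and a match describes the letters and not a bound site. Because the genes share only 7 such sites, the 40 bases around each are shown, on the strand of the gene named, with the E-box in capitals, so that the promoter of Zfp946 can be set against those of its neighbours:
Zfp820 (chr17:21845856-21845895, reverse strand): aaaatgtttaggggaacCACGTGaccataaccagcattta
Zfp947 (chr17:22166026-22166065, reverse strand): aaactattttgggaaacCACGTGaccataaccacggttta
Zfp994 (chr17:22225752-22225791, reverse strand): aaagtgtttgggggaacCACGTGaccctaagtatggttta
Zfp946 (chr17:22424175-22424214, forward strand): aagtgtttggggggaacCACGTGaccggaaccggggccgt
Zfp942, shared with Zfp943 (chr17:21962496-21962535, reverse strand): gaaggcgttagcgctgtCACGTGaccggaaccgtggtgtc
Zfp944, shared with Zfp758 (chr17:22361407-22361446, reverse strand): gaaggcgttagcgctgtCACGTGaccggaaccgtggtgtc
Zfp871 (chr17:32788354-32788393, reverse strand): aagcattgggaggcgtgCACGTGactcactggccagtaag

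The windows of Zfp820, Zfp947, Zfp994 and Zfp946 had the 12 letters AACCACGTGACC in common. This string was taken from these 4 windows as the longest run they share, so its presence in them was set by that choice. In the promoter windows of all 27025 genes it was found, on either strand, in 9 genes (0.0333%). The same 4 were the only Zfp genes among the 9, and no conclusion is drawn from this share. Matches were counted position by position with no gap allowed, so a shift of 1 base can lower them. Zfp820 and Zfp947 matched at 33 of 40 positions, Zfp994 matched each of them at 32, and Zfp946 matched each of the 3 at 25. Zfp946 matched the windows of Zfp942 and Zfp944, which are also those of Zfp943 and Zfp758, at 23 positions each. With these windows Zfp946 shares the unbroken run CACGTGaccggaaccg, and with that of Zfp994 the unbroken run gggggaacCACGTGacc. Zfp942 and Zfp943 are transcribed away from each other from starts 87 bases apart and share 1 E-box, and Zfp944 and Zfp758 do the same with 52 bases between them. The 40 bases around the E-box of the first pair and of the second were identical at 40 of 40 positions. Zfp871 lies about 10.3 Mb away, and its window matched that of Zfp946 at 18 positions.

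The E-box of Zfp946 spans 22424192 to 22424197, where the GENCODE M21 annotation has no gene, and lies 25 bases before the annotated start. Its first base is 10 bases before the RefSeq start, the shortest such distance among the 9 genes, which ranged up to 160 bases for Zfp994. By GENCODE the site shared by Zfp944 and Zfp758 lies 24 bases before the annotated start of each, so this order depends on the annotation. The E-box of Zfp947 lies in an exon of Zfp947 by GENCODE and before the start by RefSeq, and the other sites lie between genes. The whole RefSeq promoter window of Zfp946, chr17:22423952-22424251 on the forward strand, shows the E-box near its 3′ end:
Zfp946 promoter: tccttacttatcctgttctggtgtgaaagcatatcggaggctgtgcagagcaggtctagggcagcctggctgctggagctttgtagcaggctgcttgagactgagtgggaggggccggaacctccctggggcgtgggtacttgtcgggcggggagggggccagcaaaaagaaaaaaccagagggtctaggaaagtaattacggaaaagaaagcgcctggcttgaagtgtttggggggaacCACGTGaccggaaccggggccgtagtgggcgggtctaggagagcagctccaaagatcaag

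The reads assigned to genes numbered 21679622 to 32091173 in a library. Usf1 was lower in each USF-1 KO mouse (117 to 163 normalised counts) than in each WT mouse (842 to 1583), so the targeted gene matched the genotype label in all 12 mice. All 10 markers of hippocampal neurons exceeded 10 normalised counts in every mouse. WT 490 and WT 493 (mice are named by genotype and number) stood apart in summed markers of the choroid plexus, the tissue in the ventricles that secretes cerebrospinal fluid, with 57815 and 163648 normalised counts against 855 to 2798 in the other mice. Summed markers of oligodendrocytes, the myelin-forming cells, ranged from 83576 to 180879 in WT and from 71972 to 110270 in USF-1 KO mice. In bulk tissue, fewer cells of a type and less RNA per cell cannot be told apart.

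Along the chromosome the 41 members formed 4 groups, split wherever neighbours start more than 2 Mb apart. Zfp960 and Zfp97 lie near 17.1 Mb, 24 genes from Zfp160 to Zfp598 start between 21008903 and 24669687, Zfp523 stands by itself at 28177129, and 14 genes from Zfp871 to Zfp414 start between 32765496 and 33629090. All but Zfp422-ps, a pseudogene, are annotated as protein coding. Per kilobase of exon, mean levels in WT mice ranged from 3.87 normalised counts for Zfp820 to 334 for Zfp598, with a median of 68.9. Zfp598, which encodes a ubiquitin ligase that acts on collided ribosomes, was followed by Zfp523 (306 per kilobase), the counterpart of human ZNF76, and Zfp871 (289 per kilobase). The SDs of these 3 genes amounted to 4.96%, 9.02% and 8.81% of their means. These SDs cannot decide the order of the 3, since all were measured in the same mice, and the order was not tested. At the other end lay Zfp947 with 5.42 and Zfp54 with 8.70 per kilobase. Zfp946 ranked 17 of 41 in WT mice (82.7 normalised counts per kilobase) and 27 of 41 after the loss of USF-1 (38.3 per kilobase). Over the members the SD of the WT mice was 3.36% to 50.4% of the mean (median 8.44%), and the median in USF-1 KO mice was 9.06%.

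Zfp946 (ENSMUSG00000071266) occupies 22424222 to 22456689 on the forward strand. In WT mice the lowest value was 264 normalised counts, the median 291 and the highest 304, and in USF-1 KO mice these were 121, 129 and 161. Every USF-1 KO mouse lay far below every WT mouse. The mean went from 290 ± 13.7 to 134 ± 16.0 (SD, n = 6 each), which is 46.3% of the WT level, and the log2 difference was -1.11 with a 95% interval of -1.28 to -0.94. The difference was -1.15 in females and -1.06 in males. It ranged from -1.16 to -1.08 when each mouse was left out in turn and was -1.13 without WT 490 and WT 493. The lowest WT value, 264, was that of WT 493, which also had the highest choroid plexus markers and, with 842 normalised counts, the lowest Usf1 among the WT mice. WT 522, whose oligodendrocyte markers lay within the USF-1 KO range, had 291 normalised counts of Zfp946.

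**Figure D1:**
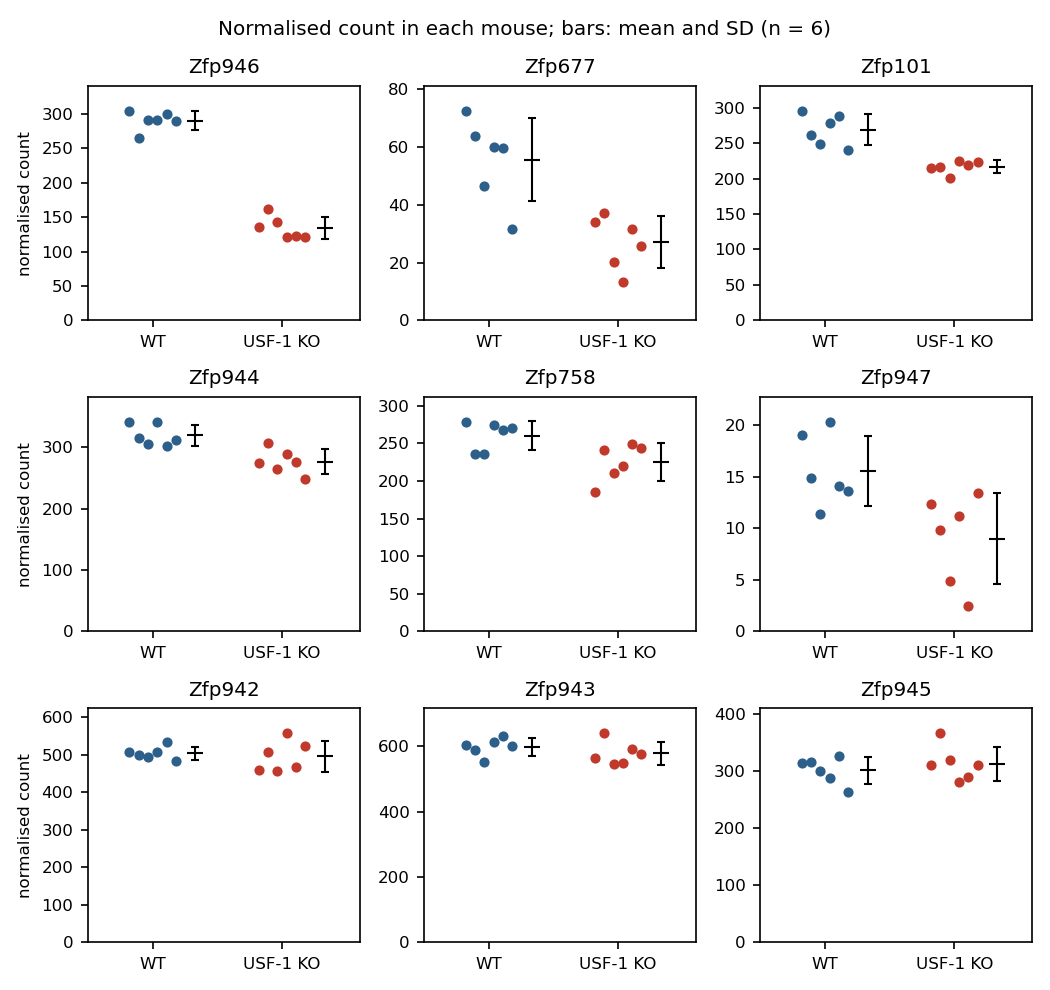
Normalised counts of 9 members in each of 6 WT (blue) and 6 USF-1 KO (red) mice, with the mean and SD of each genotype beside the points; each panel has its own vertical axis from 0. The genotypes are apart for Zfp946 and Zfp101, 1 WT mouse lies inside the USF-1 KO range for Zfp677, and for Zfp942, Zfp943 and Zfp945 the points of both genotypes overlap widely.

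The test covered the 18221 genes whose mean over the 12 mice reached 10 normalised counts. Of these, 164 passed the threshold of 0.05 on the adjusted p in limma on log2(normalised count + 1), which is 0.900% in either direction, 0.741% lower and 0.159% higher in USF-1 KO mice. All 41 members were tested. Beside Zfp946, which was selected for its fall, 1 of the 40 other members fell, Zfp101 (2.5%), and 0 rose. Without WT 490 and WT 493, an alternative chosen after the data were seen, 59 genes passed and none of the 40 did. The genotypes did not overlap in 1 of the 40, Zfp101, against 1.50% of all genes tested in either direction and 1.08% lower. An unadjusted p under 0.05 with a lower value in USF-1 KO mice was found for 6 of the 40 and for 7.60% of all genes.

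Judged by direction alone, 25 of the 40 members other than Zfp946 (62.5%) had a log2 difference below 0, against 50.2% of all genes tested. The median log2 difference was -0.03 over these 40 and -0.0006 over all genes. The 95% interval lay below 0 for 6 of the 40 (Zfp677, Zfp983, Zfp947, Zfp944, Zfp758 and Zfp101), above 0 for 1 (Zfp763), and spanned 0 for 33. For 37 of the 40 other members the whole interval lay above that of Zfp946, and the 3 exceptions, Zfp677, Zfp820 and Zfp947, had wide intervals and at most 55.6 normalised counts in WT. Along the chromosome the medians of the groups were -0.19 for the pair near 17.1 Mb, -0.05 for the 24 genes from Zfp160 to Zfp598, of which 19, Zfp946 among them, were below 0, and 0.05 for the 14 genes from Zfp871 on, of which 5 were.

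**Figure D2:**
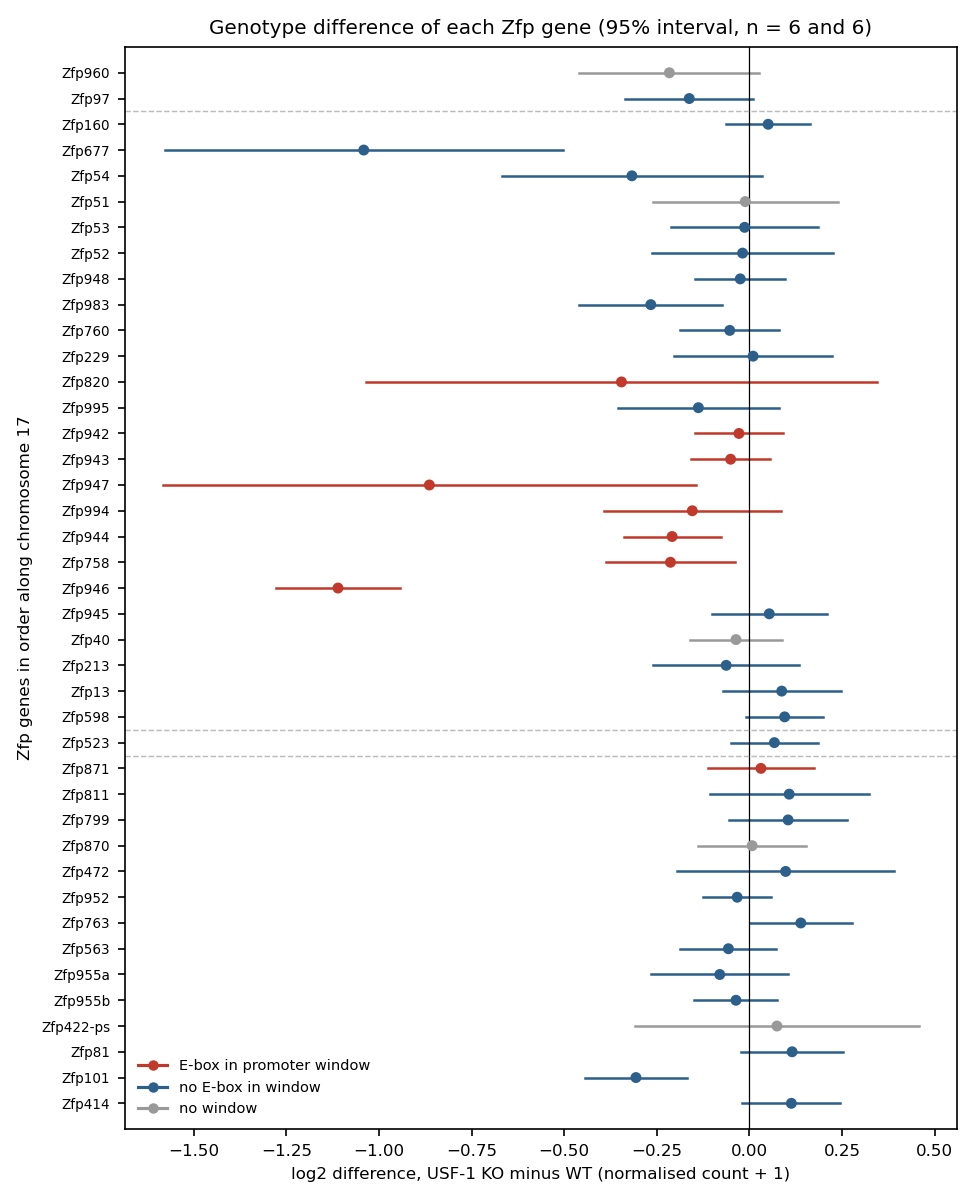
Log2 difference (USF-1 KO minus WT, on log2(normalised count + 1)) of the 41 members in order along chromosome 17, with 95% intervals; dashed lines part the 4 groups, and colours mark an E-box in the promoter window (red), none (blue) or no window (grey). Zfp946 and Zfp677 lie near -1, and most other members lie close to 0.

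Zfp946 has 22 neighbouring members within 2 Mb, and none of them passed the threshold. Of these, 18 had a difference below 0 (81.8%), and their median was -0.05. The 18 neighbours at lower coordinates had a median of -0.10, with 16 of them below 0, and the 4 at higher coordinates, Zfp945, Zfp40, Zfp213 and Zfp13, a median of 0.009. The 42 other genes tested within the same distance had a median of 0.05, with 18 below 0, and none of them passed either.

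The nearest gene, Zfp758, ends 46940 bases before the start of Zfp946 and starts 52 bases from Zfp944. Zfp758 had 236, 269 and 278 normalised counts as the lowest, median and highest WT values and 185, 230 and 250 in USF-1 KO mice. The ranges overlapped, with 3 of 6 USF-1 KO mice below the lowest WT mouse, and the log2 difference of -0.21 ± 0.08 (SE) did not pass (limma, adjusted p = 0.258). For its partner Zfp944 the values were 303, 313 and 341 in WT and 248, 275 and 307 in USF-1 KO mice, with 5 of 6 USF-1 KO mice below the lowest WT mouse. Its difference was -0.21 ± 0.06, with an adjusted p of 0.135 in limma and 0.0666 in DESeq2 on the recovered reads. The 95% intervals of both genes, -0.39 to -0.04 and -0.34 to -0.08, end well above that of Zfp946.

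Zfp942 and Zfp943, whose shared E-box sits in the same 40 bases as that of Zfp944 and Zfp758, lay nearer 0. Zfp942 had 485, 503 and 534 normalised counts in WT and 458, 488 and 558 in USF-1 KO mice, and its log2 difference was -0.03 (95% interval -0.15 to 0.09). Zfp943 had 551, 602 and 632 in WT and 545, 570 and 640 in USF-1 KO mice, and its difference was -0.05 (-0.16 to 0.06). The genotypes overlapped widely in both genes, and neither passed (limma, adjusted p = 0.872 and 0.706). On the other side of Zfp946, 390007 bases from its end, Zfp945 had 263, 307 and 327 in WT and 281, 311 and 366 in USF-1 KO mice, a difference of 0.05 (-0.10 to 0.21).

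The 3 genes with the same 12 letters around the E-box as Zfp946 were Zfp994, Zfp947 and Zfp820. Zfp994 had 169, 198 and 239 normalised counts in WT and 138, 188 and 215 in USF-1 KO mice, overlapping ranges with a difference of -0.15 (-0.39 to 0.08, limma adjusted p = 0.589). Zfp947 was near the lower limit of what was tested, with 11.4, 14.5 and 20.3 in WT and 2.43, 10.5 and 13.4 in USF-1 KO mice. All 6 USF-1 KO mice lay below the WT mean and 4 below the lowest WT mouse, and the difference of -0.86 had an interval of -1.58 to -0.14 and an adjusted p of 0.267 in limma. Zfp820 had 6.82, 13.4 and 27.6 in WT and 5.60, 10.1 and 17.1 in USF-1 KO mice, and its difference was -0.35 (-1.03 to 0.34). Its highest value was that of WT 493, and without WT 490 and WT 493 the difference was -0.03. The interval of Zfp947 holds the value of Zfp946, and that of Zfp820 overlaps the interval of Zfp946.

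Farther to lower coordinates, 1.04 Mb from Zfp946, Zfp677 (21383748 to 21399265, forward strand) was the member closest to Zfp946 in size of difference. It had 31.6, 59.8 and 72.4 normalised counts in WT and 13.4, 28.7 and 37.1 in USF-1 KO mice. Only WT sample573 (so spelt in its label), with 31.6, lay inside the USF-1 KO range. The mean went from 55.6 ± 14.4 to 27.0 ± 8.95 (SD, n = 6 each), 48.6% of WT, with a log2 difference of -1.04 (-1.58 to -0.50). Its adjusted p was 0.0741 in limma and 0.0615 in edgeR, short of the threshold, and 0.00422 in DESeq2, where 3.64% of all genes passed and 2.86% were lower. With sex as a covariate, where 0.538% of genes passed, the difference was -1.24 and the adjusted p in limma 0.0293. No CACGTG was found in its promoter window.

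The remaining neighbours within 2 Mb at lower coordinates were Zfp160, Zfp54, Zfp51, Zfp53, Zfp52, Zfp948, Zfp983, Zfp760, Zfp229 and Zfp995. Zfp983 had 235, 263 and 321 in WT and 192, 217 and 268 in USF-1 KO mice, and 5 of 6 USF-1 KO mice lay below the lowest WT mouse. Its difference was -0.27 (-0.46 to -0.07), with an adjusted p of 0.199 in limma. Zfp54 had a difference of -0.32 (-0.67 to 0.04) at means of 24.6 and 19.6 normalised counts, and the other 8 genes lay between -0.14 (Zfp995) and 0.05 (Zfp160). Among the 4 neighbours at higher coordinates the differences ran from -0.06 (Zfp213) to 0.09 (Zfp13).

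**Figure D3:**
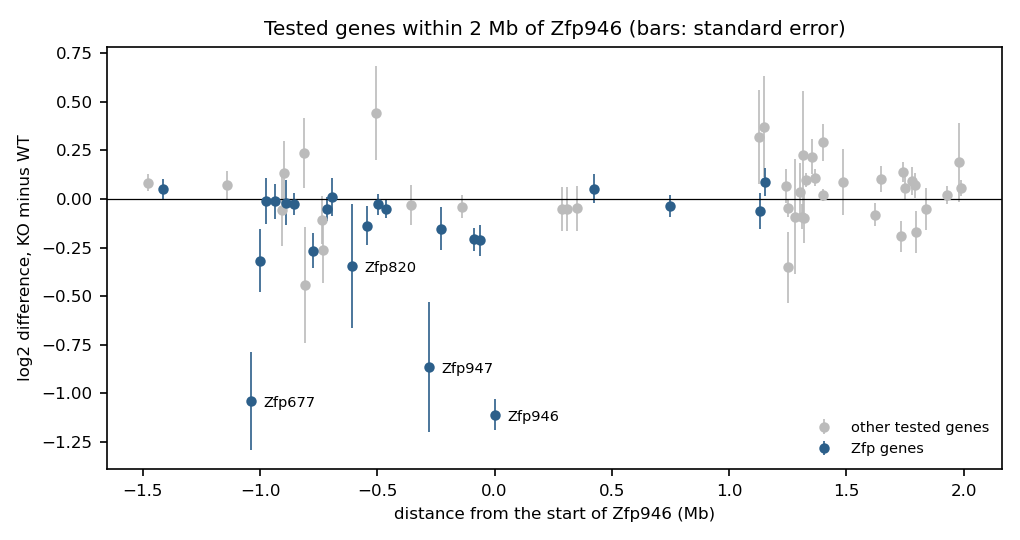
Log2 difference (USF-1 KO minus WT) with its standard error for all genes tested within 2 Mb of the start of Zfp946, by distance from that start; Zfp genes are blue and other genes grey. Zfp946 lies at -1.11, only Zfp677 and Zfp947 come near it, and both have longer error bars.

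Zfp101 (33360507 to 33394641, reverse strand) was the only member beside Zfp946 that passed, and it lies 10.9 Mb from Zfp946. It had 241, 270 and 295 normalised counts in WT and 200, 218 and 225 in USF-1 KO mice. All 6 USF-1 KO mice lay below the lowest WT mouse, but by a small margin. The mean fell from 269 ± 21.9 to 217 ± 9.08 (SD, n = 6 each), with a log2 difference of -0.31 (-0.44 to -0.17) and an adjusted p of 0.0411 in limma, 0.0381 in edgeR (0.829% of genes passed, 0.697% lower) and 0.00452 in DESeq2. The pass was close to the threshold. It held in 2 of the 12 fits without 1 mouse, those without WT 522 and WT sample573, while the difference ranged from -0.34 to -0.28, and it was lost without WT 490 and WT 493 (-0.28). It was also lost with sex as a covariate (limma, adjusted p = 0.0660), with libraries rescaled to 1 total (0.0524) and with no limit on the mean (0.0569), at differences of -0.32, -0.30 and -0.31. No CACGTG was found in its window. No other member of its group passed. Zfp81, the next member at lower coordinates, had a difference of 0.12 (-0.02 to 0.25), Zfp414 0.11 (-0.02 to 0.25), and Zfp763 0.14 (0.0006 to 0.28, limma adjusted p = 0.367), the 3 highest differences among the members, none of which passed.

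The 3 most abundant members did not pass. Zfp871 went from 3209 ± 283 to 3280 ± 297 (log2 difference 0.03, -0.11 to 0.17), Zfp523 from 2675 ± 241 to 2797 ± 130 (0.07, -0.05 to 0.18) and Zfp598 from 1300 ± 64.5 to 1390 ± 89.6 (0.10, -0.01 to 0.20). Zfp422-ps, with 12.5 to 24.0 normalised counts over the 12 mice, had a difference of 0.07 (-0.31 to 0.46). Exons of Zfp422-ps lie within Zfp955b, so that reads of the 2 could have been split by the counting.

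Sequence shared with other genes touched some members more than others. The share of a gene's 75-base exon stretches that also occur in another gene had a median of 0.633%, was over 5% in 11 members, and was 0.56% for Zfp946, 0.41% for Zfp101 and 0 for Zfp677. It was highest in Zfp422-ps (100%), in Zfp960 and Zfp97 (75.3% and 74.0%, most of it with each other), in Zfp213 (49.9%) and in Zfp955a and Zfp955b (37.1% and 36.5%). The values of these genes are uncertain, since reads from such stretches may have been assigned to either copy or dropped. For 11 members exons overlap another gene, and whether the counting used strand is not given in the sources used here.

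Among the 8 members with an E-box other than Zfp946, 7 had a difference below 0, the median was -0.18 and none passed. This median rested in part on single mice and on low genes. It was -0.12 without USF-1 KO 482, -0.12 in females only and -0.06 without WT 490 and WT 493. Over the 6 of them with a mean of at least 50 it was -0.10. In the other direction, it was -0.21 without WT 522, -0.21 without USF-1 KO 484 and -0.20 without USF-1 KO 530. The 27 members with a window and no E-box had a median of -0.02, with 15 below 0, and Zfp101 passed. Of the 18221 genes tested, 12122 were matched to a promoter window by a symbol that occurs once. Among these, 3.63% of the 1350 with an E-box in the window passed, with 59.9% below 0. Of the 10772 without one, 0.743% passed, with 49.1% below 0. All members with an E-box except Zfp871 lie in the run of genes that ends with Zfp946, and they include 2 pairs that share a site. They are therefore not independent of each other, and no test was made over them.

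**Figure D4:**
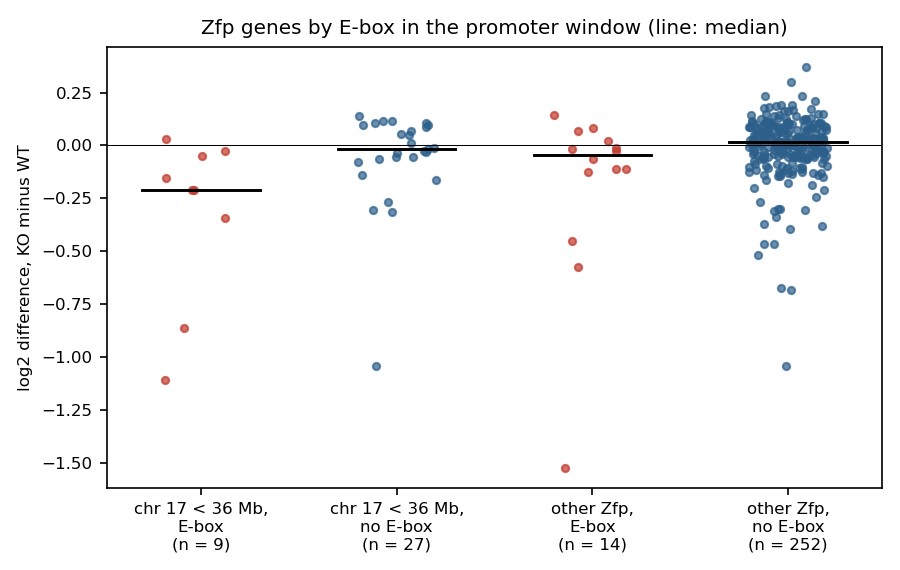
Log2 difference (USF-1 KO minus WT) of each Zfp gene with a promoter window, by position (chromosome 17 below 36 Mb, or elsewhere) and by an E-box in the window; horizontal lines are medians. The classes overlap, and the medians lie between -0.21 and 0.01. The chromosome 17 class with an E-box includes Zfp946, which was selected for its fall, and without it the median of that class was -0.18. Single genes far below 0 occur in all 4 classes, in that class Zfp946 and Zfp947.

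Of the 334 Zfp genes tested elsewhere in the genome, 2 passed and both were lower, with a median of 0.007 over all of them. Zfp459, on chromosome 13 and with an E-box in its window, went from 32.2 ± 4.94 to 11.6 ± 5.59 normalised counts (log2 difference -1.52, limma adjusted p = 0.0259), and Zfp951, on chromosome 5 without one, from 62.3 ± 8.42 to 29.8 ± 5.22 (-1.04, adjusted p = 0.00279). On chromosome 17 below 36 Mb, 5 of the 460 other genes tested passed (1.09%). Qk (-0.28), which encodes an RNA-binding protein of myelinating glia, Igf2r (-0.57), the mannose 6-phosphate receptor, and Cuta (-0.27) were lower, and the complement genes C4b (0.59) and C4a (0.47), which share much of their sequence and may share reads, were higher. None of them starts within 2 Mb of Zfp946.

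The 32 listed symbols for TRIM28, its partners and related chromatin proteins in the KRAB pathway matched 30 genes, of which 29 were tested. Of the 29, 0 passed in limma, at a share of 0.900% over all genes, with a median of 0.04 and 7 below 0. An unadjusted p under 0.05 in limma was found for 6 of the 29, all higher in USF-1 KO mice. Over all genes the share was 13.5% in either direction, made up of 7.60% lower and the rest higher. The genotypes did not overlap in 2 of the 29, both higher in USF-1 KO mice. Over all genes this share was 1.50% in either direction, made up of 1.08% lower and the rest higher. Both are named after their values were seen: Cbx3, which encodes a heterochromatin protein, and Morc2a, a partner in silencing. Morc2a went from 1448 ± 57.5 to 1623 ± 53.7 (0.16, limma adjusted p = 0.0576). Trim28 went from 3386 ± 142 to 3639 ± 191 (0.10, limma adjusted p = 0.284) and Setdb1 from 1418 ± 52.6 to 1417 ± 67.7 (-0.001). The sexes were unevenly spread over the genotypes, and the term for sex by genotype in limma passed in 0 of all genes tested, and was under an unadjusted p of 0.05 in 0 of the 41 members, with 2 mice in the smaller sex of each genotype.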

How the data were processed

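Hippocampal RNA of 12 mice, 1 library each, was grouped by the genotype in the sample labels (6 WT, 6 USF-1 KO), with sex and mouse number also taken from them. The deposited signal of a gene is a normalised count: the authors aligned reads with the Basespace RNA-Seq app and STAR (version 2.5.0a and build mm10 in the submitters' processing notes, which also name edgeR 3.22.2) and divided counts by a DESeq2 size factor. The read counter, annotation and strandedness are not given in the sources used here. Member coordinates were those of GENCODE M21 for 41 of 41. Dividing a library's values by the smallest of them above 0 gave whole numbers, the reads, for 100% of genes (tolerance 0.001) in each library. No 2 libraries agreed within sampling noise (lowest chi-square per degree of freedom 4.54). The p-values set the genotype difference against the spread between mice of the same genotype and treat the mice as independent. Labels do not say how the mice fall into litters, so this could not be checked.

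Values were put on the scale log2(normalised count + 1) and fitted by genotype alone in limma 3.58.1 (R 4.3.3, trend on, two-sided), with p adjusted by Benjamini-Hochberg over every gene whose mean reached 10. Alternatives changed the pseudocount (0.5 or 5), the minimum mean (none or 50) or the threshold (0.1), equalised library totals, added sex as a covariate, took each sex by itself, dropped the trend or 1 mouse at a time, or ran edgeR 4.0.16 or DESeq2 1.42.0 on the reads. DESeq2 gave no adjusted p for Zfp820, Zfp947 and Zfp422-ps, which was left so. The steps were tested on simulated counts. CACGTG was searched in the RefSeq promoter table, matched by symbol for 36 of 41 members and not for Zfp40, Zfp422-ps, Zfp51, Zfp870 and Zfp960. A cell type list's level is the sum of its genes.

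The members and the lists of genes were chosen with earlier results of these data known. Named were members that passed in any fit with all 12 mice, those starting within 2 Mb of Zfp946, the 3 highest and lowest by mean, the 3 largest rises and falls, Usf1, and other genes below 36 Mb on chromosome 17 that passed. Zfp57, Zfp459, Zfp951, Trim28, Setdb1, Cbx3, Morc2a, the other genes named for shared sequence and the genes flagged at the close lie outside this rule and were added after their values were seen.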

Additional observations from a re-analysis of the deposited data

Results flagged for a closer look

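In each member and genotype, a mouse was singled out when its gap to the nearest of the other 5 mice was a large share of the range of all 6 (Dixon's criterion at 95%). This held in 4 of 82 groups, and chance gives about 1 in 20, that is, 4.1. Zfp946 in WT 493 was 264 normalised counts, below the 289 to 304 of the other WT mice and above the highest USF-1 KO mouse. Zfp523 in WT 522 was 3162 normalised counts, above the 2510 to 2607 of the other WT mice. Zfp952 in USF-1 KO 482 was 403 normalised counts, below the 433 to 445 of the other USF-1 KO mice. Zfp414 in WT 547 was 484 normalised counts, above the 396 to 427 of the other WT mice.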

How the results depend on the processing

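The difference of Zfp946, which was selected for it, ran from -1.16 to -1.06 over 24 alternatives. Zfp101 passed in 8 of 24 and Zfp677 in 4 of 23, and no other member passed beside Zfp946. No named member that passed reversed its direction. Against 164 genes over the whole table, 98 passed with sex as a covariate, 109 without the trend, 611 in DESeq2, 4 in females only, 6 in males only, 343 at a threshold of 0.1 and 59 without WT 490 and WT 493 (chosen after seeing the data). Leaving out each mouse gave 64 (without WT 490) to 515 (without WT 522). Of the members, Zfp946 included, the count of 2 became 1 with no limit on the mean, with libraries rescaled, in females only and without WT 490 and WT 493, and 0 in males only, and leaving out each mouse gave 1 to 3. Members other than Zfp946 numbered 1, and became 0 with no limit on the mean, rescaling, either sex by itself, or without WT 490 and WT 493, 2 in DESeq2 and 2 at a threshold of 0.1, and 0 to 2 without 1 mouse. With sex as a covariate this 1 member was Zfp677, not Zfp101. Fits of 1 sex or without a mouse used fewer mice, and the causes of these shifts in the counts were not tested. No paired analysis was possible because the mouse numbers of the labels are not shared between genotypes. Low counts limit what can be said of Zfp820, Zfp947 and Zfp422-ps.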
